A study of Saccharomyces cerevisiae with 21 samples.

Results

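Described here are 10 genes of the budding yeast Saccharomyces cerevisiae whose products build or act at the septin ring of the mother-bud neck. They are the septin genes CDC3, CDC10, CDC11, CDC12 and SHS1, the axial landmark genes BUD3 and BUD4, and the bud-neck kinase genes GIN4, HSL1 and ELM1. They were chosen by symbol and not by their values, and all 10 were found among the 7126 loci of the table. RNA was sequenced from 21 libraries, 1 for each time from 0 to 200 min in steps of 10 min, with no replicates. All libraries came from 1 genotype in the BF264-15D background, MATa bar1::hphMX4 arg4, with disruptions of the B-type cyclin genes (clb1::URA3 with clb2::LEU2, then clb3::TRP1 as well as clb4::HIS2, and both clb5::ARG4 and clb6::ADE1) and the transgene PGAL1-CLB1::LEU2, a CLB1 copy under the galactose-inducible GAL1 promoter. Cells grown in galactose medium (YEPGalactose) at 30 °C were arrested in G1 by alpha-factor, the mating pheromone, at 30 ng/ml for 160 min and were released into dextrose medium (YEPDextrose), which shuts off the GAL1 promoter. Release from pheromone and the change of sugar therefore start together and cannot be told apart, and no library of cells with intact cyclin genes was used here.

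Septins are GTP-binding proteins that join end to end into filaments. In budding yeast they form a ring at the chosen bud site in late G1 and later an hourglass-shaped collar at the bud neck, where they hold other proteins in place and separate the mother from the bud. Cdc3, Cdc10, Cdc11, Cdc12 and Shs1 are the septins of growing cells. The kinases Elm1, Gin4 and Hsl1 sit on this collar; Hsl1 and its partner Hsl7 bring the Cdc28 inhibitor Swe1 to the neck, where it is marked for destruction, a step of the morphogenesis checkpoint. Bud3 and Bud4 gather on the septins and mark the site of the next bud in haploid cells.

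Values are FPKM, which are scaled for the length of each transcript and for sequencing depth, so levels of different genes can be set side by side. Library sums lay between 1212671 FPKM (180 min) and 1911174 FPKM (0 min), 528 loci were at 0 in all libraries, and the depth in reads is unknown. The labels give the cyclin alleles as disruptions: CLB4 was listed at 0 throughout, CLB2 ran from 38.1 to 93.3 FPKM, CLB3 from 20.1 to 32.2 FPKM, CLB5 from 22.2 to 80.4 FPKM and CLB6 from 1.84 to 160.3 FPKM, while CLB1 had 90.4 FPKM at 200 min, against 293 FPKM at 0 min. The 6 markers of MATa cells summed to between 2597 and 87237 FPKM, with MFA1 between 640 and 34800 FPKM by library and BAR1, which carries a disruption, between 1.34 and 3.18 FPKM. The 4 markers of MATalpha cells summed to between 49.5 and 86.0 FPKM. Among them SAG1 was highest, at 41.5 to 72.1 FPKM, in the range of the MATa marker STE6 (14.9 to 115 FPKM). STE3 had 4.58 to 11.9 FPKM, MF(ALPHA)2 0.468 to 20.6 FPKM and MF(ALPHA)1 0.154 to 1.14 FPKM. The 7 genes of sporulating diploid cells summed to between 38.3 and 66.2 FPKM, of which the sporulation septin SPR3 had 2.61 to 6.07 FPKM and SPR28 1.29 to 15.0 FPKM.

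The DNA upstream of 4 of the genes is shown first, because GIN4 and HSL1 were both high at 20 min, BUD3 and BUD4 climbed more slowly, and each pair holds a different short motif. For each gene the stretch from 300 to 101 bases before the start codon is given 5′ to 3′ on the gene's own strand, from the RefSeq sequence of build R64, and it holds no coding sequence of another annotated gene. Capitals mark CNCGAAA, the SCB element bound by the G1/S factor SBF, in the kinase genes and GTAAACA, the element bound by the forkhead factors Fkh1 and Fkh2, in the landmark genes.
GIN4, chrIV:1465887-1466086, minus strand: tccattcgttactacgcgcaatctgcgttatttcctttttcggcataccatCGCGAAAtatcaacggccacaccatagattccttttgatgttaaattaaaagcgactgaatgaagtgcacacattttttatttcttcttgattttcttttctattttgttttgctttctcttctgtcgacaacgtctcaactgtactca
HSL1, chrXI:248620-248819, plus strand: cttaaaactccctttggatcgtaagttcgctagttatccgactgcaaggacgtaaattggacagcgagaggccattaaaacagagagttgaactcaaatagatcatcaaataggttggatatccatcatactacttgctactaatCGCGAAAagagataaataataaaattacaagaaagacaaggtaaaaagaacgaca
BUD3, chrIII:95981-96180, plus strand: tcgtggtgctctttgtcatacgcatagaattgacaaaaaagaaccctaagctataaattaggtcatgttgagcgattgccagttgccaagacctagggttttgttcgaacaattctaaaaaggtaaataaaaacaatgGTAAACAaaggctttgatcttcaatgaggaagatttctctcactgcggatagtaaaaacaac
BUD4, chrX:598435-598634, plus strand: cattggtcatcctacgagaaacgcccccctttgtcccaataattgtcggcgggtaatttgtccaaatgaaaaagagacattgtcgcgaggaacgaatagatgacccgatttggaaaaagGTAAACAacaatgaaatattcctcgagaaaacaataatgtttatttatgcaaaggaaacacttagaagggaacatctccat
The SCB letters lie 249 to 243 bases before the start codon of GIN4 and 155 to 149 bases before that of HSL1. The forkhead letters lie 162 to 156 bases before BUD3 and 181 to 175 bases before BUD4. In the full 300 bases, searched on both strands, SHS1 also held an SCB on the opposite strand, 93 to 87 bases before its start codon. CDC10 held forkhead letters at 297 to 291 and at 98 to 92 bases. The stretch from 300 to 101 bases before CDC10, where the first of these lies, holds coding sequence of the neighbouring gene YCR003W. Neither gene had the course of the shown genes with its motif. SHS1 was at 1.08 times its 0 min level at 20 min and was highest at 190 min. For CDC10 the highest library was 1.71 times the lowest, the smallest such ratio of the 10 genes. CDC3, CDC11, CDC12 and ELM1 held neither, and none of the 10 genes held ACGCGT, the MCB element of MBF, or TGAAACA, an element of the pheromone factor Ste12; no motif hit overlapped another. Among 6001 windows of the same length before annotated coding genes, 14.6% held an SCB, 7.0% the forkhead letters, 3.48% an MCB and 7.2% the Ste12 letters. These are matches of letters in a window, and the motifs were picked with the time courses known.

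In R64 each of the genes has 1 coding exon and overlaps no other annotated gene. CDC3 (YLR314C) lies at chrXII:762575-764137, CDC10 (YCR002C) at chrIII:117380-118348, CDC11 (YJR076C) at chrX:575354-576601, CDC12 (YHR107C) at chrVIII:326813-328036 and SHS1 (YDL225W) at chrIV:52445-54100. BUD3 (YCL014W) lies at chrIII:96281-101191 and BUD4 (YJR092W) at chrX:598735-603078. GIN4 (YDR507C) lies at chrIV:1462358-1465786, HSL1 (YKL101W) at chrXI:248920-253476 and ELM1 (YKL048C) at chrXI:347214-349136.

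The septins did not share a level, nor a time course. By their median over the 21 libraries CDC10, a septin of the filament's core, stood first at 247 FPKM, and it was the highest of the 10 genes in 20 libraries, with CDC3 above it at 190 min. CDC3 followed at 137 FPKM, HSL1 at 122 FPKM, CDC11 at 116 FPKM, CDC12 at 91.6 FPKM, GIN4 at 73.2 FPKM and SHS1 at 63.5 FPKM. BUD3 at 30.3 FPKM, BUD4 at 21.8 FPKM and ELM1 at 20.8 FPKM were the lowest, and the last place fell to BUD4 in 11 libraries and to ELM1 in 10 libraries. Neighbours in this order overlapped in range over the course, CDC10 and CDC3 included (158 to 269 FPKM and 79.2 to 246 FPKM), except SHS1 and BUD3, since SHS1 was never under 44.7 FPKM and BUD3 never over 38.4 FPKM. The ratio of the highest to the lowest library was 15.1 for GIN4, 5.32 for BUD3, 5.24 for BUD4 and 5.15 for HSL1. It was 3.11 for CDC3, 2.13 for CDC11, 2.03 for SHS1, 1.89 for ELM1, 1.75 for CDC12 and 1.71 for CDC10.

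**Figure D1:**
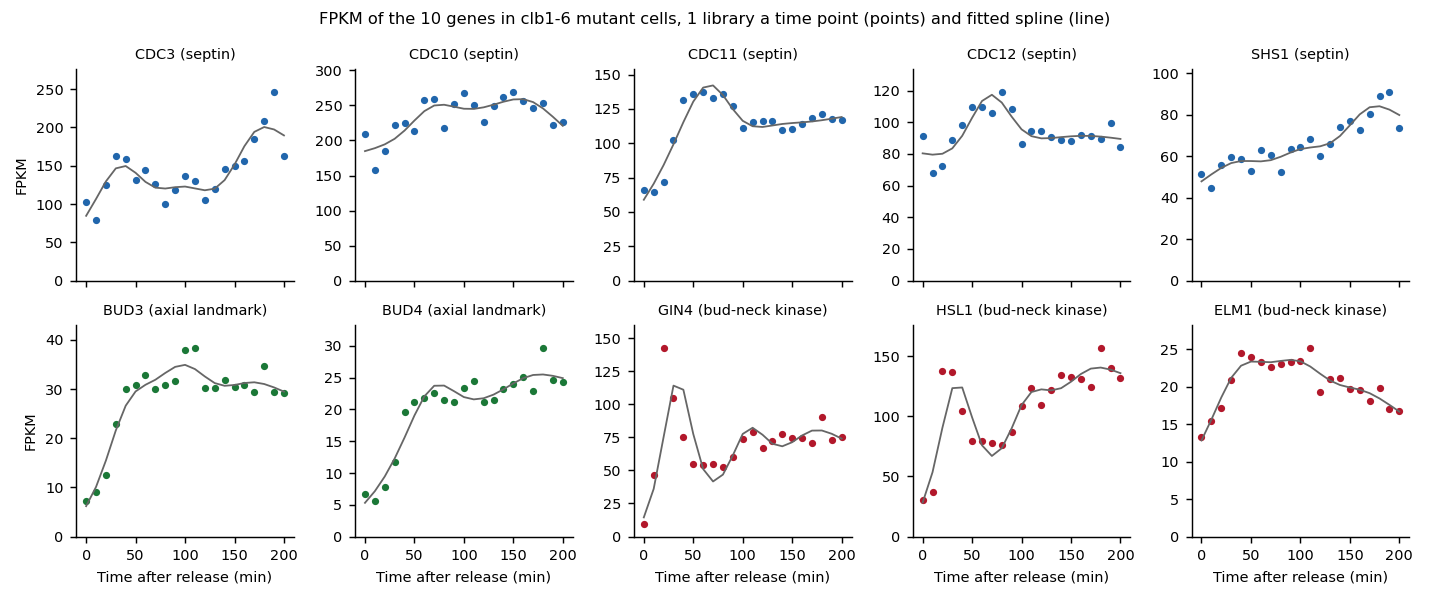
FPKM (vertical axes, from 0, each gene on its own scale) against minutes after release for the 5 septin genes (blue), the landmark genes (green) and the kinase genes (red); each point is 1 library and the line is the fitted spline. GIN4 and HSL1 have a first peak at 20 min and dip between 50 and 90 min, BUD3 and BUD4 climb to a plateau by 40 to 50 min, CDC11 and CDC12 are highest between 50 and 90 min, and CDC3 and SHS1 are highest at 190 min.

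Change over the course was tested with limma on log2(FPKM + 1) as a smooth curve (natural cubic spline, 6 degrees of freedom), and a call needed both a Benjamini-Hochberg adjusted p under 0.05 and a fitted curve that spanned 1 or more on the log2 scale. Called were 6 of the 10 genes, BUD3, BUD4, GIN4, HSL1, CDC11 and CDC3, against 44.8% of all 6198 loci tested. By adjusted p alone all 10 genes passed, as did 82.7% of all loci. The median fitted range was 1.25 for the 10 genes and 0.99 over all loci (log2). The fitted range was 2.90 for GIN4 (adjusted p = 2.65e-04), 2.32 for BUD3 (1.12e-08), 2.28 for HSL1 (1.06e-05) and 2.07 for BUD4 (1.55e-07). Among the septins it was 1.26 for CDC11 (1.18e-06) and 1.24 for CDC3 (6.89e-04). SHS1, CDC10, CDC12 and ELM1 stayed under the range of 1, at 0.80, 0.48, 0.56 and 0.83. With each library rescaled to the same sum of FPKM, SHS1 and ELM1 were called too, both at a range of 1.16 (adjusted p = 2.52e-05 and 7.01e-04). For GIN4 the curve passes well under the 20 min value and its residual SD, 0.40, was the widest of the 10 genes; without the 0 min library its adjusted p was 0.177 and its fitted range 0.86, and with 4 degrees of freedom its adjusted p was 0.0976. Without the 0 and 10 min libraries the ranges of CDC3, CDC11 and HSL1 were 0.87, 0.93 and 0.97, under 1, while BUD3, BUD4 and GIN4 kept their calls. Time points of 1 culture are not independent and stand in here for replicates, so every p-value given is too small. In bulk RNA, fewer cells with a transcript and less of it per cell cannot be told apart.

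At release the largest differences lay in the kinase genes GIN4 and HSL1 and in BUD3. With 1 library at 0 min there is no test, and the mean log2(FPKM + 1) of 20, 30 and 40 min was set against 0 min. Past 2-fold higher were 3 of the 10 genes, against 11% of all 6088 loci, and past 2-fold lower was none of them, against 19.2% of all loci. GIN4, which helps organise septins at the neck, had 143, 105 and 75.5 FPKM at 20, 30 and 40 min, against 9.47 FPKM at 0 min, a log2 difference of 3.33. HSL1 had 138, 137 and 105 FPKM at those times, against 30.5 FPKM at 0 min, a difference of 2.01. BUD3 had 12.4, 22.9 and 30.0 FPKM, against 7.21 FPKM at 0 min, a difference of 1.39. GIN4 and HSL1 were thus already high at 20 min, where BUD3, BUD4 and the kinase gene ELM1 were still at 1.72, 1.17 and 1.29 times their 0 min level. At 10 min GIN4 stood at 46.4 FPKM and HSL1 at 36.7 FPKM. The other differences were 0.78 for BUD4, 0.60 for ELM1, 0.58 for CDC11, 0.52 for CDC3, 0.16 for SHS1, 0.00 for CDC10 and −0.09 for CDC12, which was 0.11 with libraries rescaled to the same sum. The median difference was 0.59 for the 10 genes and −0.10 over all loci. With a pseudocount of 10 the difference of BUD3 was 0.84, under 2-fold, and without the 20 min library that of BUD4 was 1.07.

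The later course was compared in 4 windows, 20 to 40 min (3 libraries) and 60 to 90, 110 to 140 and 170 to 200 min (4 libraries each), with limma over 6190 loci and the difference taken as later minus earlier window. At 60 to 90 min against 20 to 40 min, 4 of the 10 genes were higher (CDC11, CDC12, BUD3 and BUD4), where 21.2% of all loci were, and 2 were lower (GIN4 and HSL1), where 19% were. At 110 to 140 min against 60 to 90 min, 1 was higher (HSL1), with 11.8% of all loci, and 1 was lower (CDC12), with 10.3%. At 170 to 200 min against 110 to 140 min, 2 were higher (CDC3 and SHS1), with 3.73% of all loci, and none was lower, with 2.23%. At 170 to 200 min against 20 to 40 min, 4 were higher (CDC3, SHS1, BUD3 and BUD4), with 34% of all loci, and 1 was lower (GIN4), with 28.2%. The median difference of the 10 genes in these comparisons was 0.19, 0.04, 0.06 and 0.22, and that of all loci 0.02, 0.02, 0.00 and 0.06. With libraries rescaled to the same sum of FPKM, the median of all loci moved by 0.04, 0.21, −0.02 and 0.23 in these comparisons, and by 0.20 at 20 to 40 min against 0 min. Of all loci called, 63.6%, 95.1%, 70.6% and 77.0% were then higher, against 52.7%, 53.4%, 62.6% and 54.6% as deposited, and of those past 2-fold at 20 to 40 min against 0 min 48.3% were, against 36.3%. At 170 to 200 min against 20 to 40 min this scaling called 7 of the 10 genes, all higher: CDC10, CDC11 and CDC12 were added and GIN4 was lost. The first and last comparisons share the 20 to 40 min libraries, and each other window also enters more than 1 comparison.

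**Figure D2:**
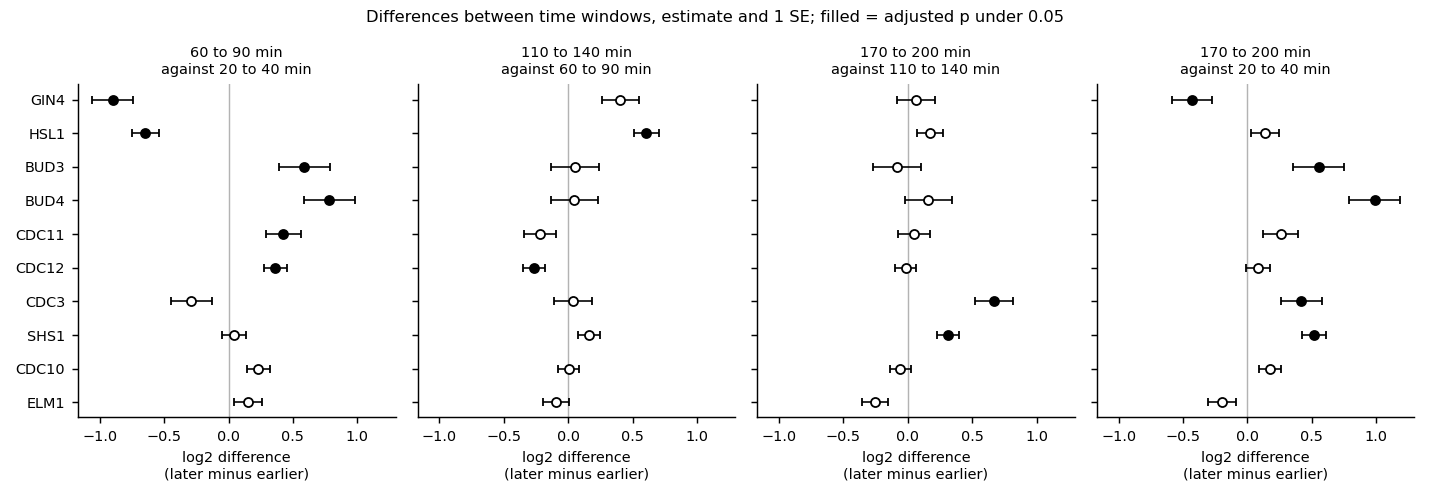
Log2 difference in log2(FPKM + 1), later minus earlier window, for each gene (rows) in the 4 window comparisons (panels), with 1 standard error either side; filled points have an adjusted p under 0.05. GIN4 and HSL1 lie left of 0 in the first panel while BUD3, BUD4, CDC11 and CDC12 lie right of it, and in the third panel the filled points are CDC3 and SHS1.

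The kinase genes GIN4 and HSL1 fell after a first peak at 20 min, and HSL1 then rose again. GIN4 had 54.1, 55.2, 52.3 and 60.3 FPKM at 60, 70, 80 and 90 min, against 143, 105 and 75.5 FPKM at 20, 30 and 40 min. HSL1 had 79.4, 77.5, 76.1 and 87.2 FPKM, against 138, 137 and 105 FPKM. Every library of the later window lay below every library of the earlier one for both genes. The log2 difference was −0.90 ± 0.16 (SE) for GIN4 (limma, adjusted p = 8.84e-04) and −0.65 ± 0.11 for HSL1 (adjusted p = 6.32e-04). These windows were set around the first G1/S rise and the low that follows, with earlier results of these data known. For genes that follow that course, as GIN4 and HSL1 did, the fall and the lack of overlap are not independent results.

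From 100 min on both genes lay above their dip. The 60 to 90 min window was set at the G1/S low, so a rise out of it is not an independent result either. HSL1 had 124, 109.6, 122 and 134 FPKM at 110, 120, 130 and 140 min, against 76.1 to 87.2 FPKM at 60 to 90 min, a log2 difference of 0.61 ± 0.10 (limma, adjusted p = 0.00181). GIN4 had 79.3, 66.6, 72.3 and 77.3 FPKM, against 52.3 to 60.3 FPKM, a difference of 0.41 ± 0.15 that missed the threshold (adjusted p = 0.0628), though its windows did not overlap either and it was called with libraries rescaled to the same sum (0.62, adjusted p = 0.0430) and in a fit of only those 2 windows (adjusted p = 0.0141). At the end of the course HSL1 had 125, 157, 140.3 and 132 FPKM at 170, 180, 190 and 200 min, against 105 to 138 FPKM at 20 to 40 min and was not called (0.14 ± 0.11, adjusted p = 0.290). GIN4 had 71.1, 90.2, 73.2 and 75.4 FPKM, against 75.5 to 143 FPKM (−0.43 ± 0.16, adjusted p = 0.0295). This last call rested on the peak library, since without 20 min the difference was −0.20 (adjusted p = 0.186), and it also missed the threshold without 30, 170, 190 or 200 min, in a fit of only the 2 windows (adjusted p = 0.0973) or with libraries rescaled to the same sum (−0.19, adjusted p = 0.478). The ratio of GIN4 to HSL1, which no scaling of a library can move, was 0.310 at 0 min and 1.26 at 10 min; it then stood at 1.03 at 20 min, at 0.681 at 60 min, and was 0.570 in the last library.

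**Figure D3:**
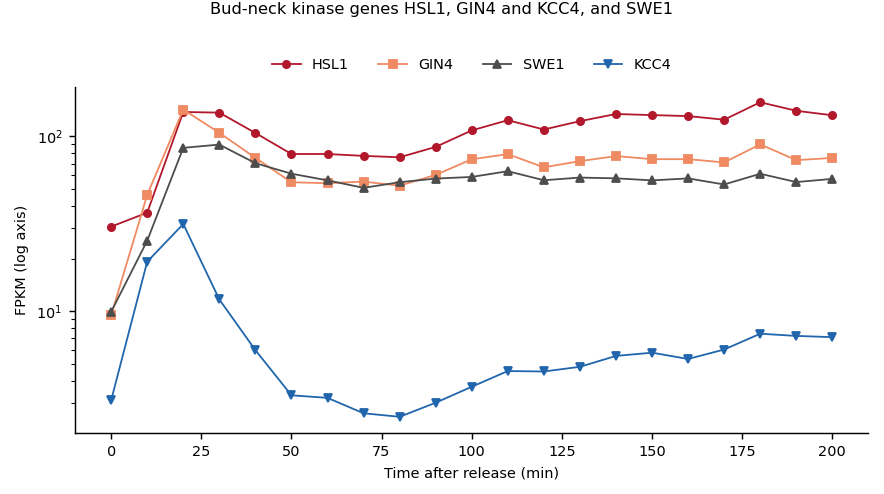
FPKM on a log axis against minutes after release for HSL1, GIN4, the related bud-neck kinase gene KCC4 and SWE1, 1 library a point. All 4 have a first high at 20 or 30 min, which for HSL1 is passed at 180 min; KCC4 then drops to 2.49 FPKM at 80 min, while GIN4, HSL1 and SWE1 stay above 50 FPKM from 20 min on.

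Related genes of the kinases did not keep 1 pattern. KCC4, which encodes the kinase closest to Gin4, had a mean of 2.82 FPKM at 60 to 90 min, against 16.4 FPKM at 20 to 40 min, a log2 difference of −1.90 ± 0.34 (limma, adjusted p = 0.00104). SWE1, whose product is the checkpoint kinase, had a mean of 54.8 FPKM, against 82.1 FPKM (−0.57 ± 0.08, adjusted p = 2.98e-04). HSL7, the partner of HSL1, had a mean of 50.0 FPKM at 60 to 90 min, against 49.5 FPKM at 20 to 40 min, and was not called there. It was lower only later, with a mean of 33.0 FPKM at 170 to 200 min against 20 to 40 min (−0.56 ± 0.09, limma, adjusted p = 1.61e-04). ELM1, the kinase gene upstream of Gin4 and Hsl1, had neither the early peak nor the dip. It had 13.3 FPKM at 0 min, 24.5 FPKM at 40 min, a highest value of 25.2 FPKM at 110 min and 16.7 FPKM at 200 min. In no window comparison was ELM1 called, although without 20 min its difference at 170 to 200 min against 20 to 40 min was −0.32 (adjusted p = 0.0159), against −0.19 with it and 0.04 with libraries rescaled to the same sum. Between the last windows, 170 to 200 min against 110 to 140 min, its difference was −0.26 ± 0.10 (limma, adjusted p = 0.149).

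The landmark genes BUD3 and BUD4 rose later than GIN4 and HSL1 and then stayed up. BUD3 had 32.8, 30.1, 30.8 and 31.6 FPKM at 60, 70, 80 and 90 min, against 12.4, 22.9 and 30.0 FPKM at 20, 30 and 40 min. BUD4, an anillin-like protein gene, had 21.8, 22.6, 21.5 and 21.1 FPKM, against 7.83, 11.7 and 19.7 FPKM. All later libraries were higher than all earlier ones for both genes, though 40 min came close to the plateau. The difference was 0.59 ± 0.20 for BUD3 (limma, adjusted p = 0.0315) and 0.78 ± 0.20 for BUD4 (adjusted p = 0.00716). The call of BUD3 rests on few libraries: without 20 min its difference was 0.25 (adjusted p = 0.122), and it also missed the threshold without 60, 80 or 90 min. That of BUD4 held without each library in turn, but in a fit of only the 2 windows both missed the threshold (adjusted p = 0.0510 for BUD4 and 0.112 for BUD3).

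After that rise neither gene was called in the comparisons of neighbouring windows. BUD3 had a mean of 32.7 FPKM at 110 to 140 min, against 31.3 FPKM at 60 to 90 min (0.05 ± 0.18, limma, adjusted p = 0.874), and BUD4 22.6 FPKM, against 21.8 FPKM (0.05 ± 0.18, adjusted p = 0.882). In the last window, 170 to 200 min, BUD4 had 22.9, 29.7, 24.6 and 24.3 FPKM, against 7.83, 11.7 and 19.7 FPKM at 20 to 40 min, with no overlap (0.99 ± 0.20, adjusted p = 6.91e-04). BUD3 had 29.4, 34.8, 29.4 and 29.1 FPKM, against 12.4, 22.9 and 30.0 FPKM, so that the windows overlapped at the 40 min library (0.55 ± 0.20, adjusted p = 0.0267), and without 20 min the difference was 0.21 (adjusted p = 0.134). It also missed the threshold without 180 min and in a fit of only the 2 windows (adjusted p = 0.0934). The highest values of BUD3, 37.9 and 38.4 FPKM, came at 100 and 110 min. The highest of BUD4, GIN4 among times from 50 min on, and HSL1 came at 180 min, in the library with the lowest sum of FPKM; without that library BUD4 kept its call between the last and the first window.

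CDC11 and CDC12, septins that are neighbours at the end of the filament's rod, were highest in the middle of the first 100 min. CDC11, the terminal septin of the rod, had 137, 133, 136 and 127 FPKM at 60, 70, 80 and 90 min, against 71.9, 102 and 131 FPKM at 20, 30 and 40 min (0.43 ± 0.14, limma, adjusted p = 0.0232). CDC12 had 109.8, 106, 119 and 108 FPKM, against 72.4, 89.0 and 98.1 FPKM (0.36 ± 0.09, adjusted p = 0.00658). The windows of CDC12 did not overlap, and those of CDC11 met at 40 min. Without 20 min the difference of CDC11 was 0.20 (adjusted p = 0.0840), and it also missed the threshold without 30 min and in a fit of only the 2 windows (adjusted p = 0.112), whereas CDC12 kept its call under each of these.

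As deposited, both genes had lower values afterwards, without overlap between the windows. CDC12 had 94.4, 94.6, 90.5 and 88.5 FPKM at 110, 120, 130 and 140 min, against 106 to 119 FPKM at 60 to 90 min (−0.27 ± 0.08, limma, adjusted p = 0.0378). CDC11 had 115, 116, 116 and 109.9 FPKM, against 127 to 137 FPKM, and was not called (−0.22 ± 0.13, adjusted p = 0.236). The CDC11 difference was 0.00 (adjusted p = 0.997) with libraries rescaled to the same sum, and in a fit of only the 2 windows it was called at −0.22 (adjusted p = 0.0278). The call of CDC12 missed the threshold without any 1 of the 8 libraries (adjusted p from 0.0521 to 0.102), and with each library rescaled to the same sum of FPKM its difference was −0.05 (adjusted p = 0.783). By 170 to 200 min CDC11 was at 117 to 121 FPKM and CDC12 at 84.3 to 99.6 FPKM, and neither was called against 20 to 40 min, with differences of 0.26 and 0.08. With libraries rescaled to the same sum both were (CDC11 0.50, adjusted p = 0.0106, CDC12 0.32, adjusted p = 0.0371), and CDC11 also without 40 min (0.46, adjusted p = 0.00206).

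CDC3 and SHS1 rose late. CDC3, a septin inside the rod, had 185, 208, 246 and 163 FPKM at 170, 180, 190 and 200 min, against 130.1, 105, 119 and 145 FPKM at 110, 120, 130 and 140 min (0.67 ± 0.15, limma, adjusted p = 0.0208). SHS1, the septin that can take the terminal place of Cdc11, had 80.4, 89.2, 90.9 and 73.7 FPKM, against 68.3, 59.9, 66.0 and 73.8 FPKM (0.31 ± 0.09, adjusted p = 0.0468). The windows of CDC3 did not overlap, while those of SHS1 met at 140 and 200 min. CDC3 lost the call without 190 min (0.57, adjusted p = 0.0730) and without 110, 120 or 130 min, and SHS1 without 6 of the 8 libraries. With each library rescaled to the same sum neither was called (CDC3 0.65, adjusted p = 0.102, SHS1 0.30, adjusted p = 0.387), and the loci called in all were 34 in place of 369.

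Over the longer span SHS1 was the steadier of the pair. It had, at 170 to 200 min, 73.7 to 90.9 FPKM, against 55.7, 59.5 and 58.5 FPKM at 20, 30 and 40 min, with no overlap and a difference of 0.52 ± 0.09 (limma, adjusted p = 2.75e-04) that kept its call without each library in turn. CDC3 had 163 to 246 FPKM, against 125, 163 and 159 FPKM (0.42 ± 0.16, adjusted p = 0.0320), and lost the call without 20, 180 or 190 min. CDC3 also had an early high of 163 FPKM at 30 min and a low of 99.7 FPKM at 80 min, but its difference at 60 to 90 min against 20 to 40 min, −0.29 ± 0.16, was not called (adjusted p = 0.159). The ratio of CDC3 to CDC11 was 0.735 at 80 min, 1.13 at 110 min and 2.10 at 190 min.

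CDC10 moved least among the 10 genes. It ran from 158 FPKM at 10 min to 269 FPKM at 150 min. It had 258, 259, 218 and 252 FPKM at 60, 70, 80 and 90 min, against 185, 223 and 225 FPKM at 20, 30 and 40 min, and the windows overlapped at 80 min. The difference of 0.23 ± 0.09 missed the threshold (limma, adjusted p = 0.0545) and passed it without 80 min (adjusted p = 0.0246) or 40 min (adjusted p = 0.0426). None of the other window comparisons called it, with differences of 0.00, −0.06 and 0.18, but with libraries rescaled to the same sum the last of these, at 170 to 200 min against 20 to 40 min, was 0.42 and was called (adjusted p = 0.0228).

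BUD3 and BUD4 had the most similar courses of any pair among the 10 genes. Over the 21 libraries Pearson's r of log2(FPKM + 1) was 0.95 for BUD3 and BUD4, 0.92 for CDC11 and BUD3, 0.89 for CDC11 and BUD4, 0.85 for CDC3 and SHS1, 0.85 for GIN4 and HSL1, 0.82 for CDC10 and BUD4, 0.78 for CDC10 and BUD3 and 0.77 for CDC11 and CDC12. From 20 min on, over 19 libraries, these were 0.91, 0.77, 0.72, 0.79, 0.78, 0.71, 0.75 and 0.86. ELM1 had its highest r over all libraries with BUD3, 0.77. From 20 min on its r was 0.59 with CDC12, 0.53 with CDC11 and 0.50 with BUD3. Over those 19 libraries CDC11 had r = −0.90 with GIN4 and −0.63 with HSL1, and CDC12 had −0.87 with GIN4 and −0.81 with HSL1. Over all 21 libraries these were 0.32, 0.47, −0.21 and −0.03. The points share libraries, their scaling and neighbouring times, so these values are descriptions.

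**Figure D4:**
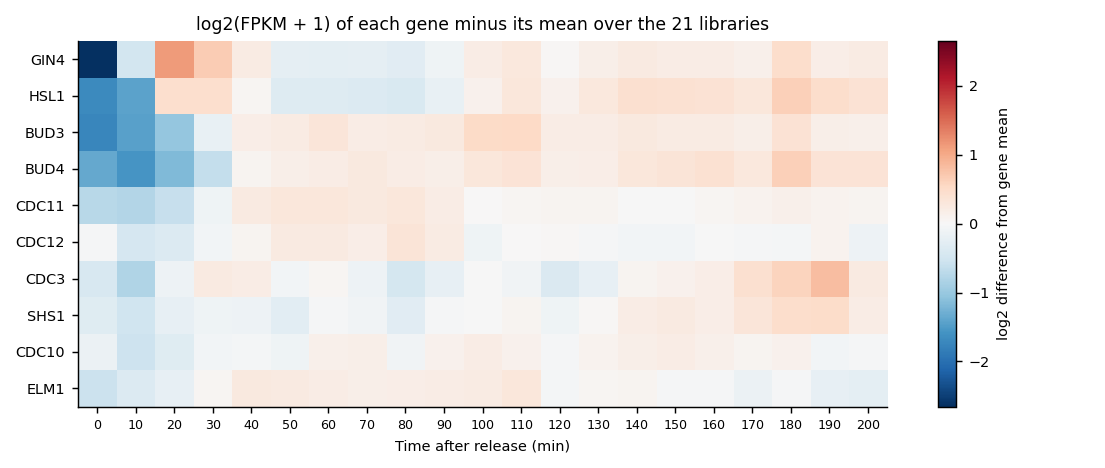
Log2(FPKM + 1) of each gene (rows) minus its own mean over the 21 libraries, by minutes after release (columns); red is above and blue below the gene's mean. GIN4 and HSL1 are red at 20 and 30 min and pale blue from 50 to 90 min, CDC11 and CDC12 are red in that span, and CDC3 and SHS1 are reddest from 170 to 190 min.

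The loci most like each gene called over time were taken from 4953 loci of at least 300 bp and a mean of at least 10 FPKM, over the 21 libraries. For GIN4 they were CLN1, a G1 cyclin gene (r = 0.98), MCD1, a cohesin subunit gene (0.97), and YDL211C (0.97). For HSL1 they were YOR114W (0.98), RSR1, the bud-site GTPase gene (0.97), and SMC4, a condensin subunit gene (0.96). BUD3 was closest to the kinesin gene KIP3 (0.98), UGA3 (0.97) and FLC3 (0.97), and BUD4 to SWI5, a late cell-cycle transcription factor gene (0.98), FAB1 (0.97) and NUM1 (0.97). CDC11 was closest to FKH1, a forkhead factor gene (0.95), HOS3 (0.95) and KIP3 (0.95). CDC3 was closest to the prefoldin genes PFD1 (0.92) and YKE2 (0.91), with YLR283W (0.91) between them.

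Counts for other genes of the bud neck and its pathways are set here against all loci, of which 21.2% were higher and 19% lower at 60 to 90 min against 20 to 40 min, with a median of 0.02. Of 20 other bud-neck and septin-associated genes, 5 were higher and 5 lower, close to those shares, with a median of −0.11, and with libraries rescaled to the same sum 5 were higher and 2 lower. NAP1, a histone chaperone gene that acts with Gin4, had a mean of 43.2 FPKM, against 17.7 FPKM (1.21 ± 0.32, limma, adjusted p = 0.00929), and NBA1 and NIS1 differed by 1.17 and 0.73. BNI4, which links chitin synthase to the septins, had 20.5 FPKM, against 48.0 FPKM (−1.10 ± 0.20, adjusted p = 0.00101), and RGA1, a Cdc42 GTPase-activating protein gene, differed by −0.49. Of 12 bud-site selection genes 1 was higher (BUD8, 0.54) and 6 were lower, among them BUD2 (−0.84), BUD9 (−0.73) and RSR1 (−0.65). RSR1 is the GTPase of the pathway that BUD3 and BUD4, both higher in this window, feed into. Of 11 genes of septin assembly through Cdc42, none was higher and 2 were lower (BEM3, −0.51, and RGA1), and of 10 morphogenesis checkpoint genes 2 were higher (NAP1 and CDC5, 0.54) and 1 lower (SWE1). Of 7 related kinase genes TOS3 (0.21) and SNF1 (0.20) were higher and KCC4 was lower. With libraries rescaled to the same sum RGA1, BEM3, SPA2, AXL1, BUD6, TOS3 and SNF1 lost their calls, which left 4 of the bud-site genes lower, none of the Cdc42 genes called and none of the related kinase genes higher. RGA1, TOS3 and SNF1 also lost theirs without 20 min and without 30 min. So did RGA1 without 60, 70 or 80 min, SNF1 without 60, 70 or 90 min and TOS3 without 90 min. ERV14, another of the lower bud-site genes, lost its call without 30, 80 or 90 min.

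Of 24 SBF and MBF genes, the G1/S transcripts, 21 were lower and none higher at 60 to 90 min against 20 to 40 min, with a median of −1.13, where 19% of all loci were lower and 21.2% higher, led by CLB6 (−3.69), POL30 (−2.67) and RNR1 (−2.31). GIN4 and HSL1 differed by −0.90 and −0.65 in the same comparison. Its windows were set around the first G1/S rise and the low that follows, with earlier results of these data known. A fall of G1/S transcripts between them was thus built in and is not an independent result. Of 20 genes of the Clb2 cluster, named for the mitotic cyclin and holding BUD3 and BUD4 themselves, 11 were higher and 3 lower, with a median of 0.53. The 11 were 9 without 80 min or without 90 min, and from 9 to 12 without each library in turn. SUR7 (1.88), HST3 (1.10) and SWI5 (0.88) led the higher ones, and KIN3 (−1.50), CLB1 (−0.65) and DBF2 (−0.43) were the lower ones. Of these DBF2 lost its call without 20 min or with libraries rescaled to the same sum. CLB1 and CLB2 in this list, and CLB5 and CLB6 among the SBF and MBF genes, carry disruptions in this strain. CLB1 also has the copy under the GAL1 promoter, which dextrose shuts off. Values of these cyclin genes are therefore not those of intact genes. At 110 to 140 min against 60 to 90 min, where HSL1 rose, 9 of the 24 SBF and MBF genes were higher and none lower. Of all loci 11.8% and 10.3% were. Among the 9 were RNR1 (1.40), POL30 (1.36) and CDC21 (1.01). This rise starts from the window set at the G1/S low, so it too was built in and is not an independent result. In the last window against the first, 14 of the Clb2 cluster genes were higher and 2 lower, and 2 of the SBF and MBF genes were higher and 13 lower, where 34% of all loci were higher and 28.2% lower. These 13 were 8 without 20 min and 20 without 40 min, and were 6 with libraries rescaled to the same sum. The 20 to 40 min window was set around the first G1/S rise, so lower G1/S values against it were built in as well.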

How the data were processed

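RNA-seq values of 21 libraries, 1 a time point, were used. Per the labels' protocols the libraries came from a stranded mRNA kit, and per the submitters' processing notes STAR, Cufflinks, Cuffnorm and build R64 were used, with no versions or settings stated. The deposited values were taken as FPKM with 1 added by the authors, inferred from the values, and that 1 was subtracted; no replicates exist, and depth in reads is unknown, so no counting interval was given. A second table with 50 columns was not used here. Names of 6208 of the 7126 loci (87.1%) matched the R64 annotation.

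log2(FPKM + 1) was fitted with limma 3.58.1 in R 4.3.3 (mean-variance trend, Benjamini-Hochberg over all loci of mean FPKM of at least 1), as a spline over all libraries with 14 residual degrees of freedom and over 15 libraries in 4 windows with 11. A fold change on this scale understates that of low genes. Genes were named as every member of the 10, up to 3 list genes in each direction per comparison, and the 3 loci most like each called gene. The windows, motifs and gene lists were chosen with earlier results of these data known. The 10 genes were chosen by symbol and not by their values, though also with such results known. Alternatives were the pseudocount (0.1, 10), the filter (none, 5), scaling of libraries, spline degrees of freedom (4, 8), the thresholds, the variance trend, the windows fitted and leaving out each library.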

Additional observations from a re-analysis of the deposited data

How the results depend on the processing

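The count of the 10 genes called over time, 6 as deposited, was 3 without the 0 and 10 min libraries, 10 by adjusted p alone, 8 rescaled to the same sum (SHS1 and ELM1 added), 5 with 4 degrees of freedom, and from 5 to 6 without each library in turn. At 60 to 90 min against 20 to 40 min the count was 6, with 3 where the fit held only the libraries of those windows (CDC11, BUD3 and BUD4 lost), 0 at a difference of at least 1, and 4 to 7 without each library. At 110 to 140 min against 60 to 90 min it was 2, with 4 in the fit of those windows alone, 0 at a difference of at least 1, and 1 without each library. At 170 to 200 min against 110 to 140 min it was 2, with 0 rescaled to the same sum or at a difference of at least 1, 1 rescaled by the median ratio, without the variance trend or in the fit of those windows alone, and 0 to 2 without each library. At 170 to 200 min against 20 to 40 min it was 5 (4 higher, 1 lower), with 7 rescaled to the same sum, all higher, 3 in the fit of those windows alone (BUD3 and GIN4 lost), 0 at a difference of at least 1, and 3 to 6 without each library. Where thresholds were raised, or libraries left out, fewer calls follow in part from the setting itself; otherwise the cause was not tested. The sign of a gene's difference turned in 20 of the values under other settings, none of them of a called difference.

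Loci called at 60 to 90 min against 20 to 40 min were 2494, and 1621 with the same sum. Between 170 to 200 min and 110 to 140 min they were 369, and 34 with the same sum and 75 to 351 without each library. At 110 to 140 min against 60 to 90 min they were 1365, and 800 without 130 min, 786 without 140 min and 863 without 60 min. The spline called 2775 loci, and 1734 without 0 and 10 min, 1837 with a pseudocount of 10 and 5127 by adjusted p alone. At a difference of at least 1 the 4 window comparisons called 302, 72, 31 and 875 loci; 918 loci passed 2-fold with 10 min in place of 0 min and 1195 with a pseudocount of 10, in place of 1837.

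No paired analysis was possible because every group is 1 library. With 1 culture and no replicates, the spread between neighbouring times stands in for error, and the smallest called difference among the 10 genes was −0.27 (log2, CDC12).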
